A study of Homo sapiens with 16 samples.

Results

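H2023 is an established human line of non-small cell lung cancer. Wild-type H2023 cells grown for 7 days in a stem-cell-enriched culture, called Oncosphere in the series' design, were compared with wild-type H2023 cells grown for 3 days in normal culture. Each culture was represented by 2 libraries, so the comparison used 4 of the 16 libraries of the series, chosen by their labels, and covered 18227 genes. None of the 4 carried an edit or a drug. The other 12 libraries were H2023 cells labelled as a ZC3H12A knockout in both cultures, all from 1 clone, and the A549 lung cancer line in the same cultures and genotypes. The H2023 libraries among them shared in the variance estimate of the main comparison. All 12 served for tests of a difference between backgrounds. Culture type and days in culture change together in this design and cannot be told apart. The labels do not say that replicates were separate cultures, so p-values measure only the spread between these samples, which may be technical.

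Oncosphere culture is generally a way of growing tumour cells as floating aggregates rather than attached to plastic, and it is used to enrich cells with stem-like properties. The medium and plates used for these samples are not given in the sources used here. Detached cells have fewer focal adhesions and less actin tension, and the transcription factors YAP, TEAD and SRF respond to that tension. Cells make cholesterol from acetyl-CoA through the mevalonate pathway, whose genes are switched on by SREBP2 when sterol in the endoplasmic reticulum is low. Serum lipoproteins are a main outside source of cholesterol for cultured cells.

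Values are TPM, which give each gene's length-corrected share of a library's transcripts, so a rise of one abundant class lowers all others. Pairs of values are replicates 1 and 2, with normal culture first and oncosphere culture second. Between 14163 and 14380 genes reached 1 TPM in the 4 libraries. Replicates correlated across genes with r = 0.988 in normal and 0.983 in oncosphere culture. Mitochondrially encoded transcripts held 10.3% and 12.6% of TPM in normal culture and 25.0% and 25.6% in oncosphere culture. The median log2 fold change of all genes was -0.18 with the deposited values. After these transcripts were removed and each library was rescaled to the same total, it was -0.02. Counts are therefore also given with the rescaled values. Where counts are given for libraries left out in turn, the order is normal replicate 1, normal replicate 2, oncosphere replicate 1 and oncosphere replicate 2. The epithelial keratins KRT8, KRT18 and KRT7 exceeded 880 TPM in every library, and the 6 measured immune, stromal and blood markers summed to between 7.91 and 12.4 TPM per library, with LYZ listed at 0 in both normal libraries. Of the lung markers set for this check only NAPSA was measured, at 1.37 and 1.53 against 2.02 and 1.67 TPM.

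ZC3H12A (ENSG00000163874; GRCh38, chromosome 1, 37474552 to 37484379, + strand) encodes Regnase-1, an RNase that degrades inflammatory mRNAs and is the gene edited elsewhere in the series. Its level was 26.8 and 29.9 TPM in normal culture and 32.5 and 26.4 TPM in oncosphere culture. The 2 cultures overlapped, and the log2 fold change of 0.05 (SE 0.17) did not pass the test (limma, adjusted p = 0.867).

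The cultures differed widely. With limma on log2(TPM + 1) and a Benjamini-Hochberg adjusted p under 0.05, 721 genes (3.96% of 18227) were higher in oncosphere culture and 3180 (17.4%) were lower. With the rescaled values, 1022 (5.61%) were higher and 1263 (6.93%) were lower. All 1263 lower calls of the rescaled values were among the 3180, and 1917 lower calls were made with the deposited values only. Of the 721 higher calls, 704 remained and 11 of the other 17 were mitochondrially encoded genes. No gene was called in opposite directions. Changes of at least 2-fold numbered 385 higher and 803 lower with the deposited values, and 522 and 423 with the rescaled values.

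**Figure D1:**
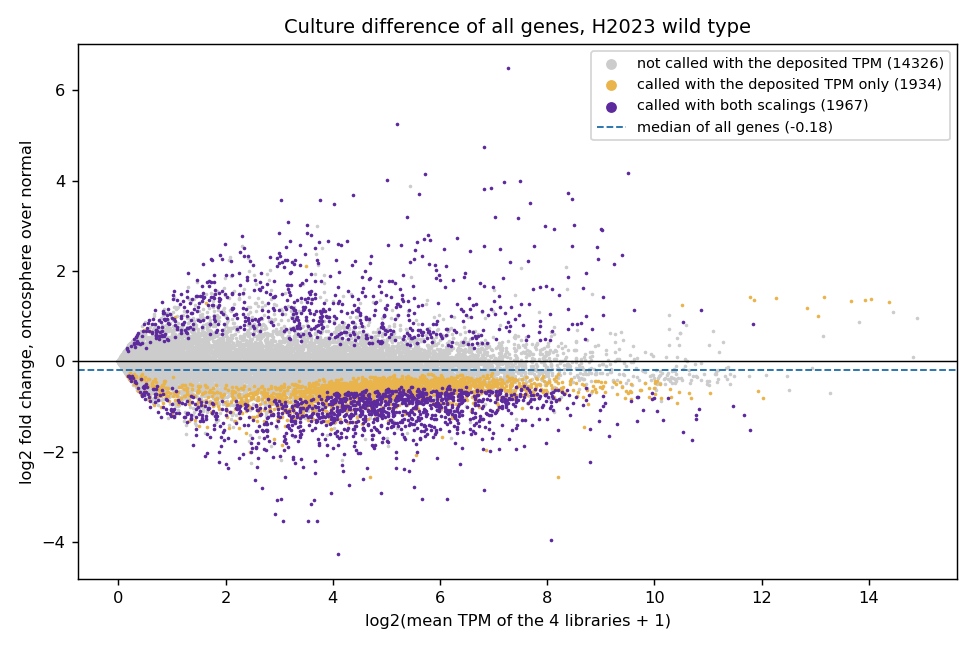
Log2 fold change of each gene (vertical axis, oncosphere over normal culture) against its level (horizontal axis, log2 of the mean TPM of the 4 libraries plus 1). Purple points were called with both scalings, yellow points with the deposited values only, and the dashed line marks the median of all genes at -0.18; most yellow points lie just below that line, and mitochondrially encoded genes are the yellow points at the upper right, since they have no rescaled value.

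The 12 largest rises included genes of sterol metabolism and to secreted and liver-type proteins. These were taken, like the 12 largest falls, among called genes of at least 5 TPM whose cultures did not overlap. ALB (ENSG00000163631; chromosome 4, 73397114 to 73421412, + strand), which encodes serum albumin, stood at 1.47 and 3.57 TPM in normal and 336 and 269 TPM in oncosphere culture, a log2 fold change of 6.49 (SE 0.77, adjusted p = 0.00418). ADH1C, an alcohol dehydrogenase, went from 0.36 and 1.22 to 96.7 and 43.9 TPM. Every oncosphere value of both genes was far above every normal value. ALDOC, a glycolytic aldolase, rose from 3.95 and 5.31 to 98.8 and 98.2 TPM, and KCNE4, a potassium channel subunit, from 2.32 and 3.25 to 65.7 and 54.2 TPM. CLDN2, a tight junction protein, rose from 24 and 7.44 to 328 and 132 TPM (adjusted p = 0.00831). TPPP3, a tubulin-binding protein, was 4.46 and 4.56 TPM in normal culture and 34 and 148 TPM in oncosphere culture (adjusted p = 0.0179). Its call was lost when a library was left out, with an adjusted p of 0.0831 without normal replicate 1, 0.0789 without normal replicate 2 and 0.0527 without oncosphere replicate 2. TM7SF2, HMGCS1, INSIG1, ACSS2, MVD and LCN2 complete the 12 and are described with their groups.

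The largest falls included regulators of differentiation and cytoskeletal genes. ANXA3 (ENSG00000138772; chromosome 4, 78551519 to 78610451, + strand), a membrane-binding annexin, fell from 45.3 and 18.5 to 0.52 and 0.58 TPM, a log2 fold change of -4.28 (SE 0.38, adjusted p = 0.00221). The keratins KRT80 and KRT4 fell from 22.7 and 23 to 0.66 and 1.56 TPM and from 12.2 and 13.7 to 0.26 and 0.42 TPM. These 3 genes were below 2 TPM in both oncosphere libraries and above 12 TPM in both normal libraries. DIO3, which inactivates thyroid hormone, fell from 24.1 and 17.3 to 1.99 and 0.91 TPM, and UNC13D, a vesicle priming protein, from 19.2 and 23.4 to 1.01 and 2.48 TPM. GLI2, a Hedgehog transcription factor, fell from 14.8 and 12.5 to 0.89 and 0.67 TPM, and EFEMP1, a matrix glycoprotein, from 46.6 and 57.1 to 4.62 and 7.53 TPM. All of these kept their calls with the rescaled values. HNRNPA1P33, at 12.2 and 13.7 against 0.54 and 0.79 TPM, is a processed pseudogene that resembles its parent gene, so its value is uncertain. ANKRD1, AMOTL2, ID3 and ID2 complete the 12 and are described below.

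Genes of cholesterol synthesis rose together. Of 25 measured members of that list, 22 were higher and none lower, with the deposited and with the rescaled values alike. With the deposited values that is 88%, against 3.96% of all genes. The median log2 fold change was 2.60 against -0.18 for all genes. All 22 remained called when any 1 of the 4 libraries was left out. In pathway order, HMGCS1 (ENSG00000112972; chromosome 5, 43289395 to 43313512, - strand), which makes HMG-CoA, was at 83.8 and 68.5 TPM in normal and 1310.0 and 1456 TPM in oncosphere culture, a log2 fold change of 4.17 (SE 0.12, adjusted p = 0.000259). No normal library reached the lowest oncosphere library. MVK, the mevalonate kinase, rose from 25.8 and 15 to 152 and 121 TPM, and MVD, which makes isopentenyl diphosphate, from 55.9 and 37.3 to 603 and 636 TPM. PMVK, the kinase between them, was at 40.2 and 38.4 against 36.6 and 41.5 TPM and did not pass the test (adjusted p = 0.947). IDI1 and FDPS, which build the isoprenoid chain, rose by 3.51 and 2.35 on the log2 scale.

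Past the branch point, FDFT1, SQLE and LSS, which make and close squalene into lanosterol, rose by 2.56, 2.92 and 3.16 on the log2 scale. CYP51A1, MSMO1, NSDHL, HSD17B7, SC5D and DHCR7, which act between lanosterol and cholesterol, rose by 2.15 (NSDHL) to 3.60 (MSMO1). TM7SF2, a sterol reductase, had the largest fold change of the list, from 8.91 and 5.74 to 229 and 206 TPM (4.74 on the log2 scale, SE 0.22, adjusted p = 0.00075). EBP, a sterol isomerase, was low throughout, at 2.52 and 2.71 against 1.95 and 1.5 TPM, and did not pass the test. Regulators rose as well. INSIG1, which holds SREBP in the endoplasmic reticulum and is itself an SREBP target, rose from 28.8 and 13.7 to 305 and 367 TPM. SREBF2, which encodes SREBP2, rose from 61.7 and 41.6 to 116 and 112 TPM, the smallest rise of the 22. In normal culture replicate 1 exceeded replicate 2 for 23 of the 25 genes, by a median of 0.51 on the log2 scale, a gap far smaller than the culture difference.

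Fatty acid genes rose in part. Of 17 measured members, 10 were higher and none lower with both scalings, with a median log2 fold change of 1.47. With the deposited values the share higher was 58.8%, against 3.96% of all genes. Leaving out libraries in turn left 8, 8, 10 and 8 higher, and 1 was lower without oncosphere replicate 1. ACSS2, which makes acetyl-CoA from acetate, was at 15.5 and 16.4 TPM in normal and 199.6 and 350.1 TPM in oncosphere culture, and its log2 fold change of 3.97 (SE 0.27, adjusted p = 0.00114) was the largest of the list. The desaturases FADS2 and SCD rose from 170.3 and 80.6 to 953 and 859 TPM and from 217 and 93.6 to 823 and 823 TPM. ACLY, which makes cytosolic acetyl-CoA from citrate, rose by 1.47 and the synthase FASN by 1.27 on the log2 scale, where the FASN call was lost with an adjusted p of 0.0533 without normal replicate 1, 0.0871 without normal replicate 2 and 0.0653 without oncosphere replicate 2. ACACA, the carboxylase that commits acetyl-CoA to fatty acids, was at 55.7 and 46.1 against 48.3 and 46.7 TPM (adjusted p = 0.686). SREBF1, the SREBP gene tied to fatty acid synthesis, was at 81.1 and 72.2 against 55.2 and 38.3 TPM, with a log2 fold change of -0.72 that did not pass the test (adjusted p = 0.0607).

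**Figure D2:**
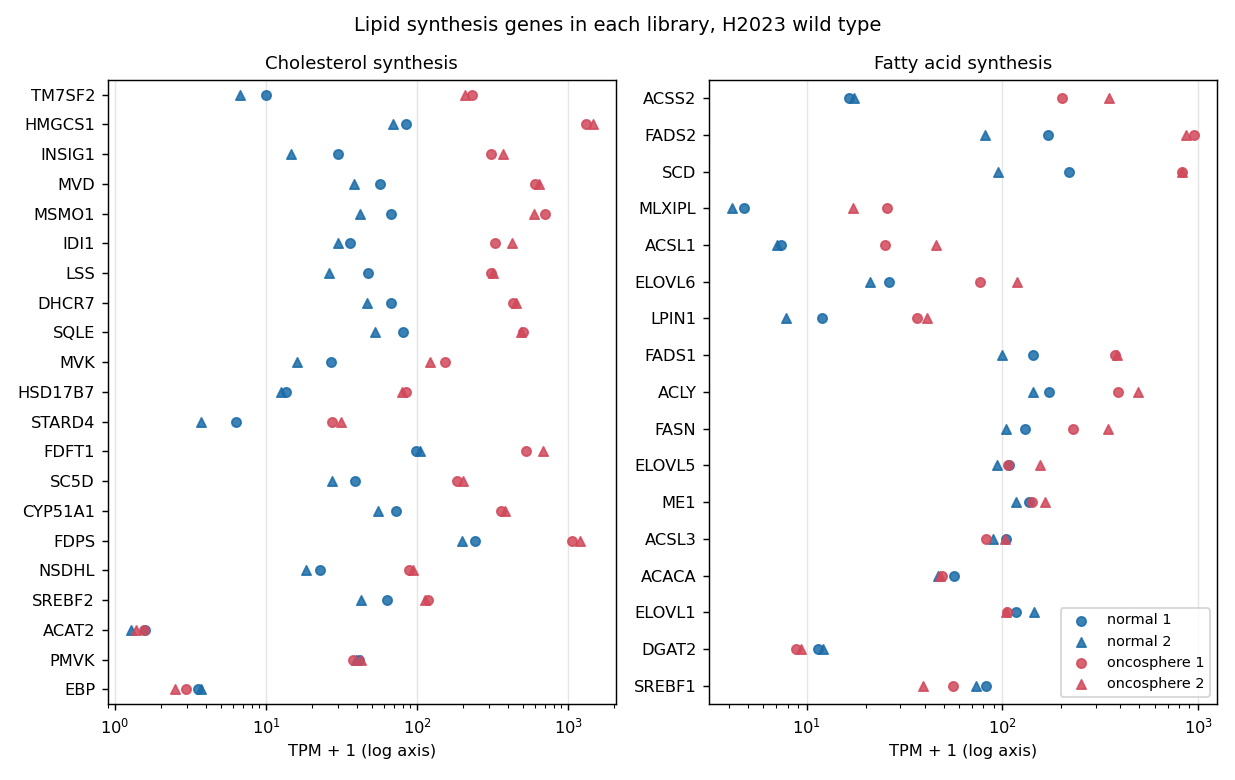
TPM plus 1 of each library on a log axis, for members of the cholesterol (left) and fatty acid (right) synthesis lists, ordered by fold change; blue marks normal and red marks oncosphere culture, circles are replicate 1 and triangles replicate 2. For 18 of the 21 cholesterol genes drawn both oncosphere libraries lie to the right of both normal libraries, while the lower 7 fatty acid genes were not called. Such a rise without overlap was seen in 2660 of the 18227 genes tested.

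The promoter of INSIG1 is shown because INSIG1 had the largest rise among list members that hold a short sterol element. CACNCCAC, a short form of the sterol regulatory element bound by SREBP, was searched on both strands of the 250 bases before each start site in RefSeq (GRCh38.p14). It was found at 4.87% of 35116 start sites of all genes and at 4 of 23 start sites of the cholesterol list (17.4%). These 4 were at INSIG1, IDI1, SC5D and SREBF2. The longer TCACNCCAC, which contains it, was found at 0.883% of all start sites and at SREBF2 alone in the list. Below, chr7:155297628-155297775 of the + strand is printed, outside annotated exons, with the match on the other strand in capitals. A match describes letters only, and genes without one may hold other forms of the element or hold it elsewhere.
INSIG1: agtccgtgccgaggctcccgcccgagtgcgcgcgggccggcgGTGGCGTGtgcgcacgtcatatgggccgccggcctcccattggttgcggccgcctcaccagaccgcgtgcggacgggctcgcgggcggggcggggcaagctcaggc

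Secreted plasma-type proteins were higher in part. Of 39 measured acute phase, complement and coagulation genes, 17 were higher (43.6%, against 3.96% of all genes) and 1 lower. The median log2 fold change was 0.68, and with the rescaled values 16 were higher and 1 lower. In leave-out fits, 12, 11, 16 and 11 were higher. LCN2, an iron-scavenging lipocalin, rose from 13.4 and 14.4 to 183 and 239.9 TPM (log2 fold change 3.82, SE 0.41, adjusted p = 0.00331). SERPINA1, the elastase inhibitor antitrypsin, rose from 0.91 and 0.96 to 11.7 and 14.2 TPM, and APOE, a lipoprotein component, from 13.5 and 13.1 to 63.4 and 130.3 TPM. In each of these genes both oncosphere libraries were far above both normal libraries. The complement genes CFI and CFB rose from 15.5 and 15.7 to 100.19 and 68.6 TPM and from 13.6 and 14.8 to 55.6 and 94.6 TPM. C4A and C4B also rose, but are near-identical copies whose reads cannot be assigned with certainty, and the C4A call was lost with an adjusted p of 0.0851 without normal replicate 2, 0.064 without oncosphere replicate 1 and 0.0713 without oncosphere replicate 2. PLAU, the urokinase that activates plasmin, was the gene that fell, from 81.4 and 89.9 to 24.3 and 37.9 TPM, and its call was lost with an adjusted p of 0.0566 without normal replicate 2. The fibrinogen genes FGA, FGB and FGG and complement C3 did not pass the test, with C3 at 325 and 395 against 513 and 479 TPM.

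Secretory and mucin genes had 9 members higher (40.9%, against 3.96% of all genes) and none lower of 22. Their median log2 fold change was 1.07. With the rescaled values 10 were higher and none lower, against 5.61% and 6.93% of all genes. When libraries were left out, 3, 3, 6 and 7 were higher. MUC5B, a gel-forming airway mucin, was at 5.86 and 7.76 TPM in normal and 100.04 and 49.6 TPM in oncosphere culture (log2 fold change 3.21, SE 0.38, adjusted p = 0.0042). FCGBP, a mucus component, rose from 1.39 and 2.12 to 29.9 and 10.8 TPM. For both genes oncosphere replicate 1 exceeded replicate 2, and both exceeded every normal library. AGR2, a disulfide isomerase needed for mucin folding, rose from 1322 and 1028 to 2862 and 2305 TPM. MUC5AC was at 19.1 and 4.2 against 52.3 and 10.9 TPM, where the cultures overlapped, and did not pass the test (adjusted p = 0.308). The call of FCGBP was lost with an adjusted p of 0.101 without normal replicate 1, 0.0746 without normal replicate 2 and 0.0744 without oncosphere replicate 1, and that of AGR2 with 0.0704 without normal replicate 2 and 0.0559 without oncosphere replicate 1.

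Proliferation genes fell almost without exception. Of 45 measured genes of G1/S and DNA replication, 43 were lower (95.6%), and of 44 genes of G2/M and mitosis, 43 were lower (97.7%). Of all genes 17.4% were lower. With the rescaled values these counts were 40 and 41. Median log2 fold changes were -1.15 and -1.28. With a library left out, 39, 34, 39 and 39 of the G1/S genes and 32, 39, 42 and 37 of the G2/M genes were lower. All 45 and all 44 had both normal libraries above both oncosphere libraries, as did 8401 of the 18227 genes tested. MKI67, a marker of cycling cells, fell from 81.4 and 76 to 24.7 and 24 TPM, and TOP2A, the mitotic topoisomerase, from 199.7 and 182 to 62.4 and 54.2 TPM. CDC20, which activates the anaphase-promoting complex, fell from 258 and 280.3 to 73.9 and 65.2 TPM (log2 fold change -1.94, SE 0.09, adjusted p = 0.00075). PLK1, a mitotic kinase, fell from 171 and 165 to 55.9 and 45.1 TPM. MCM7 and MCM2, subunits of the replicative helicase, fell from 249.6 and 249 to 93.5 and 84.8 TPM and from 118 and 115 to 46.4 and 37.4 TPM. CCND3, a G1 cyclin, fell from 409.7 and 369 to 138 and 88.2 TPM, and its call was lost with an adjusted p of 0.0562 without normal replicate 1. The 3 members not called were CCNE1, CCNE2 and CKS2, with log2 fold changes of -0.92, -0.66 and -0.50. In bulk RNA, fewer cycling cells and less of each RNA per cell cannot be told apart.

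TTTGAA, the core of the cell cycle homology region that recruits the DREAM repressor complex, was searched in the same promoter windows on both strands. It was found at 13.3% of all start sites and at 23 of 45 start sites of the G2/M list (51.1%). By gene, it was found at 21 of 35 matched genes (60%), against 16.1% of all genes. CKS2, which was not called, was among the genes that hold it. The stretches below are shown because these genes fell and hold it outside annotated exons, with matches on either strand in capitals. They cover chr1:43358743-43358922 (+ strand), chr10:128126424-128126530 (- strand) and chr17:40417967-40418146 (- strand).
CDC20: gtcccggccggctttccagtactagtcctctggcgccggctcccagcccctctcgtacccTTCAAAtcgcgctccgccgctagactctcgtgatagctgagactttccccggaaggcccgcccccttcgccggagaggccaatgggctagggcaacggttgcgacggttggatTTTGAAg
MKI67: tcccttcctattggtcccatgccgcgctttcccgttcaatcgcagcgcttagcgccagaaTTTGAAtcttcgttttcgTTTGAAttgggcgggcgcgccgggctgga
TOP2A: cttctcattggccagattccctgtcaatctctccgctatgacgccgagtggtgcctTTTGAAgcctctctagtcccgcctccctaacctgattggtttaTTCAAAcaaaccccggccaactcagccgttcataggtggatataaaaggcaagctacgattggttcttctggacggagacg

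Of 30 measured cell cycle inhibitors and p53 targets, 3 were higher and 4 lower, which is 10% and 13.3% against 3.96% and 17.4% of all genes. After rescaling 4 were higher and 3 lower, against 5.61% and 6.93% of all genes. In leave-out fits, 2, 2, 2 and 1 were higher and 3, 3, 5 and 3 lower. TP53INP1 and CDKN2D rose, from 0.85 and 1.01 to 4.74 and 4.66 TPM and from 6.33 and 8.06 to 14.9 and 16.8 TPM. The CDKN2D call was lost with an adjusted p of 0.0539 without normal replicate 1 and 0.0532 without oncosphere replicate 2. PLK2, a stress-induced kinase, fell from 190.2 and 203 to 30.4 and 22.8 TPM (log2 fold change -2.85, SE 0.18, adjusted p = 0.000935), and GADD45B from 44.1 and 40.6 to 9.93 and 12.1 TPM.

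Targets of YAP and SRF, which report cytoskeletal tension, were lower in most members. Of 28 measured members 20 were lower (71.4%, against 17.4% of all genes) and none higher, with a median log2 fold change of -1.21. With the rescaled values 14 were lower. Leaving out libraries in turn left 14, 15, 17 and 14 lower. ANKRD1 (ENSG00000148677; chromosome 10, 90912096 to 90921276, - strand), a widely used YAP reporter gene, was at 17.3 and 11.8 TPM in normal and 0.4 and 0.24 TPM in oncosphere culture (log2 fold change -3.54, SE 0.22, adjusted p = 0.000862). AMOTL2, a YAP inhibitor that YAP induces, fell from 92.6 and 84.3 to 14.5 and 6.43 TPM, and CCN1, a secreted matrix protein, from 64.3 and 77.9 to 12.8 and 11.8 TPM. AXL, a receptor kinase, fell from 63.5 and 69.1 to 13 and 10.7 TPM. CCN2 fell less, from 13.8 and 17.3 to 7.77 and 5.84 TPM, and its call was lost with the rescaled values (adjusted p = 0.0669) and with an adjusted p of 0.0637 without normal replicate 1, 0.109 without normal replicate 2 and 0.0985 without oncosphere replicate 2. The actins ACTB and ACTG1 fell from 4811 and 5593 to 1886 and 1747 TPM and from 4744 and 4358 to 1839 and 2185 TPM. DKK1 was at 118 and 101 against 53 and 20.3 TPM and did not pass the test (adjusted p = 0.177). Its cultures did not overlap, but its oncosphere replicates lay far apart. SRF and TAGLN did not pass the test either, with log2 fold changes of -0.10 and 0.28.

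GGAATG is the site of the TEAD factors through which YAP acts. On either strand it was found at 11.9% of all start sites and at 10 of 34 start sites of this list (29.4%). By gene, it was found at 10 of 23 matched genes (43.5%), against 14.3% of all genes. The stretches of 3 genes that fell are shown, outside annotated exons, with matches in capitals. They cover chr6:131951422-131951601 (- strand), chr10:90921277-90921337 (- strand) and chr19:41226505-41226684 (+ strand). CCN2 holds 3 matches in this stretch. DKK1, which was not called, holds a match in its window as well.
CCN2: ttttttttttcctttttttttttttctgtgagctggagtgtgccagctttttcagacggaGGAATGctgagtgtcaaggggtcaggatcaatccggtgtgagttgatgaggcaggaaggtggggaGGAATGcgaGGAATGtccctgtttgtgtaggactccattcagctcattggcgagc
ANKRD1: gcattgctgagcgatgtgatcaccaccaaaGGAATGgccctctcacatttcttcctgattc
AXL: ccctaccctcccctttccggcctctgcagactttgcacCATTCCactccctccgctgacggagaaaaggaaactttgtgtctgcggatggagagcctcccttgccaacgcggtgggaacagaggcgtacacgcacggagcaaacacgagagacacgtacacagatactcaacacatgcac

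Adhesion and matrix genes that passed the test were all lower with the deposited values. Of 30 integrin and focal adhesion genes 21 were lower (70%, against 17.4% of all genes) and none higher, with 10 lower after rescaling. In leave-out fits, 11, 7, 17 and 16 were lower. CAV1, the caveolar coat protein, fell from 173 and 179 to 45.3 and 45.4 TPM (log2 fold change -1.94, SE 0.08, adjusted p = 0.00075). PXN, an adaptor of focal adhesions, fell from 99 and 102 to 39.5 and 42.5 TPM, and ITGB1, the common integrin beta chain, from 879.8 and 1072 to 535 and 519.5 TPM. ITGA5, the fibronectin receptor chain, was at 34.9 and 46.5 against 40.4 and 54.2 TPM and did not pass the test. Of 29 matrix and basement membrane genes 10 were lower (34.5%, against 17.4% of all genes) and none higher. After rescaling 6 were lower and 1 higher, against 6.93% and 5.61% of all genes. When libraries were left out, 5, 5, 8 and 4 were lower, and 1 was higher without oncosphere replicate 1. LOXL2, a collagen cross-linking oxidase, fell from 38 and 44 to 9.54 and 11.6 TPM, and HSPG2, the proteoglycan perlecan, from 87.7 and 126 to 38.1 and 33.3 TPM. FN1, fibronectin, was at 80.8 and 78.8 against 258 and 133 TPM, higher in both oncosphere libraries, without passing the test (adjusted p = 0.0906).

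Of 30 genes of TGF-beta and BMP signalling 13 were lower (43.3%, against 17.4% of all genes) and none higher. After rescaling 8 were lower, against 6.93% of all genes. With a library left out, 10, 7, 10 and 8 were lower, and 1 was higher without oncosphere replicate 2. ID3 and ID2, inhibitors of basic helix-loop-helix factors induced by BMP, fell from 378 and 608 to 67.6 and 12.8 TPM and from 126 and 118 to 24.7 and 7.57 TPM. All normal values exceeded all oncosphere values, but the oncosphere replicates were several-fold apart. Their adjusted p-values were 0.0152 and 0.0159. For ID3 the call was lost with an adjusted p of 0.0579 without normal replicate 1 and 0.0798 without normal replicate 2, and for ID2 with 0.0787 without normal replicate 1, 0.0711 without normal replicate 2 and 0.0507 without oncosphere replicate 2. SMAD7 and SMAD6, feedback inhibitors of the pathway, fell from 10.7 and 19.7 to 4 and 3.71 TPM and from 12.4 and 17.5 to 5.05 and 3.21 TPM. TGFB1, the ligand, fell from 49.4 and 49.8 to 26.7 and 27.8 TPM. The receptor TGFBR2 was at 90.4 and 69.4 against 105 and 60.7 TPM, where the cultures overlapped.

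**Figure D3:**
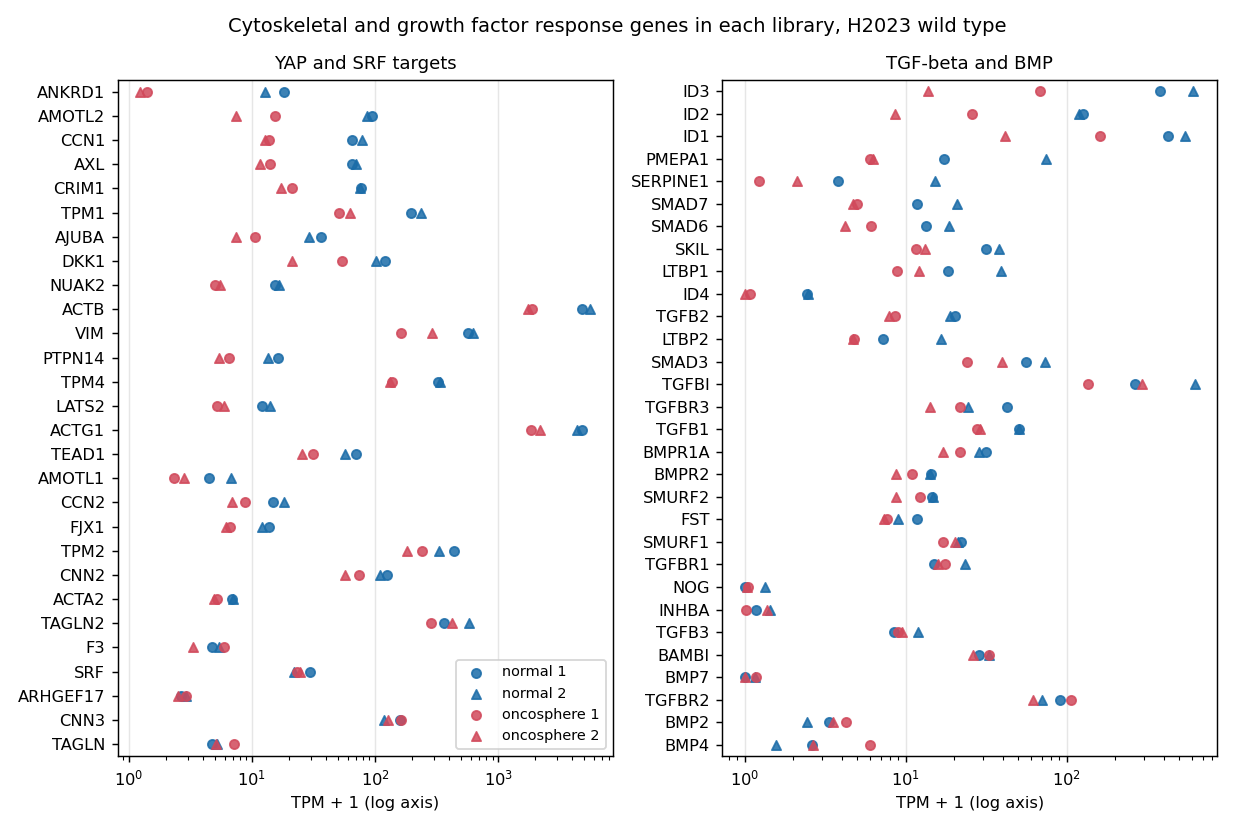
TPM plus 1 of each library on a log axis for the YAP and SRF targets (left) and the TGF-beta and BMP genes (right), ordered by fold change, in the colours and shapes of the lipid gene plot. ANKRD1, with 0.4 and 0.24 TPM in oncosphere culture, lies farthest to the left of its normal values among YAP targets, and the oncosphere replicates of ID1, ID2 and ID3 lie visibly apart, with replicate 2 lower.

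Genes used as markers of stem-like cells were lower where they differed. Of 21 measured markers none was higher and 7 were lower (33.3%, against 17.4% of all genes), with a median log2 fold change of -0.66. After rescaling 3 were lower, against 6.93% of all genes. Leaving out libraries in turn left 3, 3, 6 and 4 lower, and 1 was higher without normal replicate 1. ALDH1A3, an aldehyde dehydrogenase, fell from 2.56 and 3.52 to 0.31 and 0.53 TPM, NES, the filament protein nestin, from 9.62 and 11 to 3.88 and 3.16 TPM, and TERT, the telomerase subunit, from 4.27 and 3.74 to 1.01 and 0.75 TPM. BMI1, a Polycomb subunit, fell from 135 and 76.2 to 48.5 and 36.1 TPM with the deposited values, but its call was lost after rescaling (adjusted p = 0.0525) and with an adjusted p of 0.0581 without normal replicate 1 and 0.0999 without oncosphere replicate 2. The TERT call was lost with an adjusted p of 0.075 without normal replicate 1, 0.0598 without normal replicate 2 and 0.0705 without oncosphere replicate 2. The surface markers CD44 and CD24 did not pass the test, with CD44 at 229 and 184 against 415 and 247 TPM, both higher in oncosphere culture (adjusted p = 0.155). SOX2 stood at 1.46 and 0.12 against 2.33 and 1.24 TPM (adjusted p = 0.208), and ALDH1A1 at 1568 and 1293 against 1044 and 579 TPM (adjusted p = 0.0777). A p above the threshold with 2 libraries a group does not show that these levels were equal. Of 24 mesenchymal transition genes 7 were lower (29.2%, against 17.4% of all genes) and none higher. After rescaling 3 were lower, against 6.93% of all genes. In leave-out fits, 3, 1, 4 and 3 were lower. SNAI2, a repressor of epithelial genes, fell from 6.26 and 3.79 to 1.08 and 0.49 TPM.

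Of 18 measured epithelial genes 2 were higher and 4 lower, and after rescaling 3 and 4. With the deposited values 11.1% of the list were higher and 22.2% lower, against 3.96% and 17.4% of all genes. With the rescaled values 5.61% of all genes were higher and 6.93% lower. When libraries were left out, 1, 1, 2 and 3 were higher and 3, 4, 5 and 3 lower. KRT7, KRT18 and KRT8 fell by 1.29, 1.19 and 0.99 on the log2 scale, where the KRT8 call was lost with an adjusted p of 0.0579 without normal replicate 1 and 0.051 without oncosphere replicate 2, and CLDN4, a claudin, rose from 1.13 and 1.03 to 4.17 and 4.65 TPM. EPCAM was at 20.2 and 17.8 against 51 and 28.1 TPM without passing the test (adjusted p = 0.076). Of 10 lung lineage genes 1 was higher (10%, against 3.96% of all genes) and none lower, and after rescaling 2 were higher. With the deposited values it was SOX9, a progenitor transcription factor, at 7.42 and 4.69 against 30.5 and 22.7 TPM (adjusted p = 0.00395). SOX9 stayed called when any library was left out. FOXA1, a pioneer factor of lung and other foregut epithelia, was at 3.77 and 4.66 against 8.75 and 9.16 TPM and passed the test after rescaling only (adjusted p = 0.0441).

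Of the 13 mitochondrially encoded respiratory chain genes 9 were higher (69.2%, against 3.96% of all genes), with a median log2 fold change of 1.34. Of 39 nuclear subunits of the same chain none was higher and none lower, and the median was -0.03. All 13 mitochondrially encoded genes had both oncosphere libraries above both normal libraries, as did 2660 of the 18227 genes tested. MT-CYB, the cytochrome b of complex III, rose from 2574 and 2829 to 7119 and 7095 TPM. When libraries were left out, 3, 4, 6 and 4 of the 13 were higher. After rescaling 3 of the 39 nuclear subunits were higher and none lower, against 5.61% and 6.93% of all genes. Of 64 cytosolic ribosomal protein genes 11 were lower with the deposited values and none after rescaling. These 11 are 17.2% of the list, about the 17.4% lower among all genes, and in leave-out fits 0, 4, 7 and 1 were lower.

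Immune and inflammatory genes rose in part. Shares higher were 13.9% of interferon-stimulated, 33.3% of antigen presentation and 12.5% of NF-kB and inflammatory genes, against 3.96% of all genes. With the rescaled values 5 interferon-stimulated and 5 NF-kB and inflammatory genes were higher and none lower. Of all genes 5.61% were then higher. Of 36 interferon-stimulated genes 5 were higher and none lower, with a median log2 fold change of 0.61. Oncosphere replicate 1 exceeded replicate 2 for only 6 of the 36, with a median difference of -0.43 on the log2 scale. With a library left out, 1, 0, 4 and 0 were higher, and 1 was lower without normal replicate 1. IFI6 rose from 20.3 and 20.5 to 55.3 and 81.7 TPM (adjusted p = 0.0132), and its call was lost with an adjusted p of 0.0676 without normal replicate 1, 0.0649 without normal replicate 2 and 0.062 without oncosphere replicate 2. Of 24 antigen presentation genes 8 were higher, and 9 were higher after rescaling. Oncosphere replicate 1 exceeded replicate 2 for only 6 of the 24. Leaving out libraries in turn left 4, 4, 8 and 3 higher. PSMB8, a subunit of the immunoproteasome, rose from 46.3 and 37.4 to 65.4 and 67.2 TPM, and its call was lost with an adjusted p of 0.0724 without normal replicate 2, 0.0564 without oncosphere replicate 1 and 0.0721 without oncosphere replicate 2. Of 32 NF-kB and inflammatory genes 4 were higher, with 3, 2, 9 and 1 higher when a library was left out. CXCL1, a neutrophil chemokine, rose from 33.8 and 31.7 to 115 and 120.0 TPM (adjusted p = 0.000797). SOD2 and ICAM1 were far higher in oncosphere replicate 2 than in replicate 1, with SOD2 at 202 and 236 against 364 and 1027 TPM and ICAM1 at 72.6 and 94.7 against 148 and 357 TPM, and did not pass the test (adjusted p = 0.0618 and 0.0501). ICAM1 passed after rescaling (adjusted p = 0.0472). Replicate 1 exceeded replicate 2 in oncosphere culture for only 4 of the 32 genes.

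In the remaining lists, apart from heat shock, the share lower was near or below the 17.4% of all genes. The share higher was 3.96% over all genes. It was 10.5% for glycolysis and hypoxia, 12.5% for chaperones, 11.1% for NRF2 targets, 11.1% for immediate early and 10.3% for lysosome genes. For ATF4 and amino acid genes it was 3.45%, and for Wnt and Notch and heat shock genes 0%. With the rescaled values 5.61% of all genes were higher and 6.93% lower. Higher and lower calls then numbered 6 and 4 for glycolysis and hypoxia, 4 and 0 for chaperones and 3 and 0 for NRF2 targets. For immediate early genes they numbered 5 and 3, and for ATF4 and amino acid genes 2 and 1. Lysosome genes had 6 and 1, and Wnt and Notch genes 1 and 3. Counts that follow are of the deposited values unless stated. Of 38 genes of glycolysis and hypoxia 4 were higher and 7 lower (18.4%). SLC2A1, the main glucose transporter, fell from 77.6 and 111 to 35 and 29.2 TPM, and CA12, a carbonic anhydrase, rose from 287 and 276 to 490.2 and 522 TPM. Heat shock and metallothionein genes had 9 lower of 21 (42.9%), and 5 after rescaling or without oncosphere replicate 2, and HSP90AB1 fell from 1509 and 1371 to 678 and 673 TPM. Of 24 chaperone and unfolded protein response genes 3 were higher and 1 lower, with XBP1 at 86 and 104 against 191 and 209.6 TPM. Of 27 NRF2 targets 3 were higher and 2 lower, and GPX2, a glutathione peroxidase, rose from 275 and 289.6 to 736 and 794 TPM. Of 33 Wnt and Notch genes 5 were lower (15.2%), among them JAG1, a Notch ligand, at 60.6 and 77 against 17.2 and 22.8 TPM. Immediate early and ERK feedback genes had 4 higher and 5 lower (13.9%) of 36, ATF4 and amino acid genes 1 and 4 (13.8%) of 29, and lysosome and autophagy genes 4 and 2 of 39. These small counts moved with a library left out, with 1, 2, 3 and 2 immediate early genes, 1, 1, 6 and 2 lysosome genes, 1, 1, 2 and 1 chaperone genes and 1, 4, 2 and 2 NRF2 targets higher. Lower calls then numbered 4, 4, 5 and 4 for glycolysis, 1, 4, 4 and 5 for immediate early genes, 2, 4, 1 and 1 for ATF4 and amino acid genes, 1, 0, 0 and 0 for NRF2 targets, 0, 0, 0 and 0 for chaperones and 1, 0, 1 and 3 for lysosome genes. For Wnt and Notch they numbered 4, 3, 5 and 4, with 1 gene higher without normal replicate 1.

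**Figure D4:**
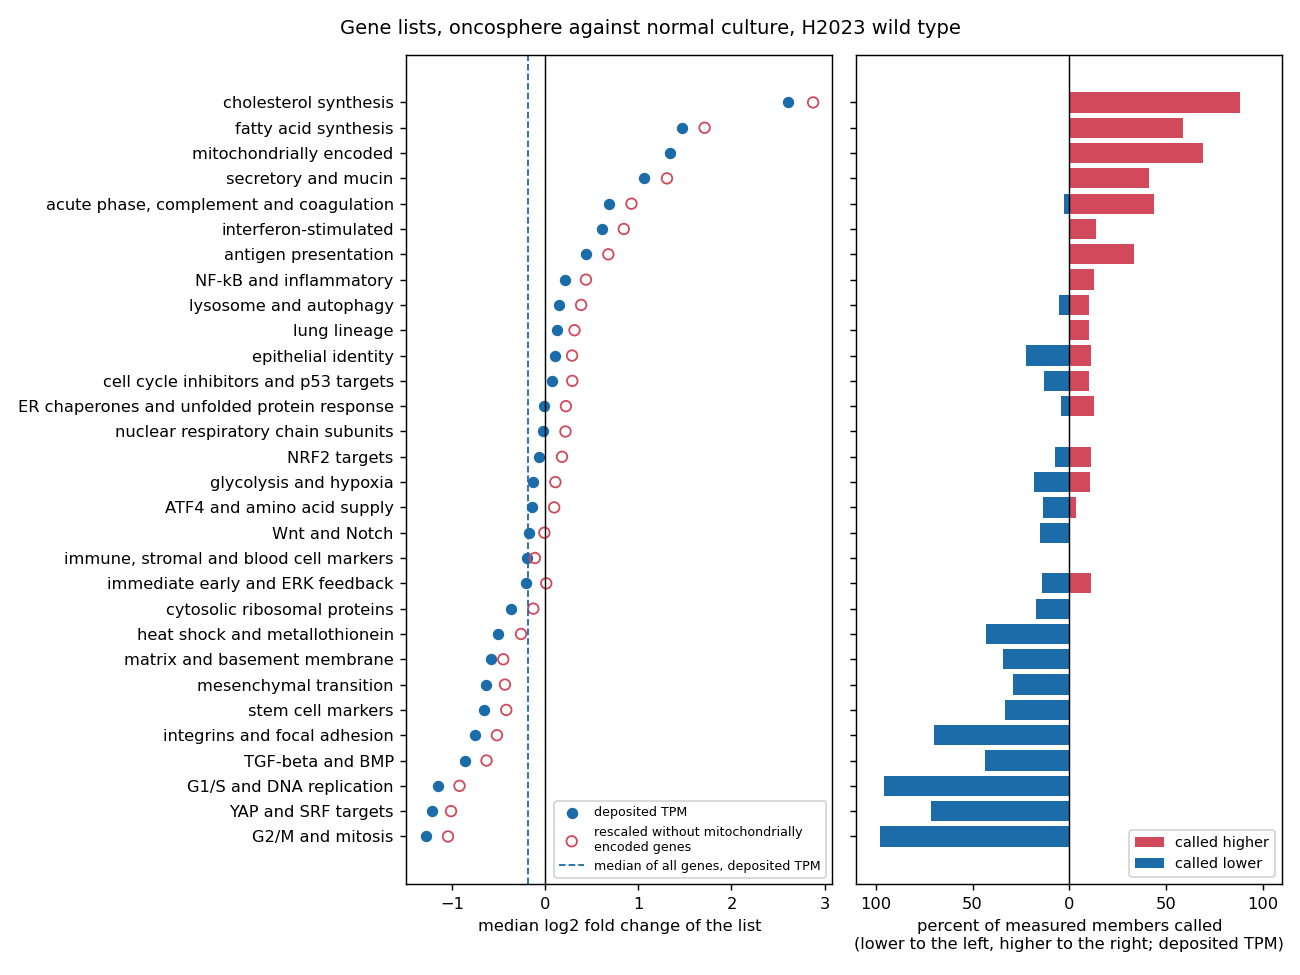
For each gene list, the median log2 fold change with the deposited (filled) and the rescaled (open) values on the left, with the median of all genes as a dashed line, and on the right the percent of measured members called higher (red) or lower (blue). Cholesterol synthesis lies at the top with 22 of 25 higher, and G2/M genes at the bottom with 43 of 44 lower; the mitochondrially encoded list has no rescaled value.

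Whether the culture difference depended on the genotype label was tested in the same 8 H2023 libraries. The libraries labelled knockout had ZC3H12A at 41.48 and 41.54 TPM in normal and 94.6 and 69.2 TPM in oncosphere culture, all above the wild-type libraries. An edit that leaves the mRNA cannot be checked from gene-level TPM, so these libraries are named by label only. In those libraries 1400 genes (7.68%) were higher and 3495 (19.2%) lower in oncosphere culture. Of the 721 genes higher in wild type, 601 were also higher there (83.4% of 721 and 42.9% of 1400), and of the 3180 lower, 2432 were also lower (76.5% and 69.6%). The difference itself passed the test for no gene (0% with limma, the only tool run), with 1294 genes (7.1%) at an unadjusted p under 0.05 and a smallest adjusted p of 0.193. The smallest p-values belonged to GPX2, CAV1, IFNGR1, ITGBL1, CXCL1 and CDH16, which encode among others a peroxidase, a caveolar protein and an interferon receptor chain, and whose differences, wild type minus labelled knockout, were -2.75, 1.11, -1.46, 1.90, -1.31 and -1.88 on the log2 scale. GPX2 and CXCL1 rose in both backgrounds, by 1.43 and 1.81 in wild type and by 4.19 and 3.12 in the libraries labelled knockout. HMGCS1 rose by 4.17 and 4.23.

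Whether it depended on the line was tested with all 16 libraries. In A549 wild type, fitted with all 16 libraries, 3479 genes (19.1%) were higher and 4082 (22.4%) lower. The 721 and 3180 calls of H2023 come from the fit of 8 libraries. With all 16 libraries, 943 genes were higher and 4043 lower in H2023. The counts and shares that follow therefore compare fits of unlike power. Of the 721 higher in H2023, 520 were higher in A549 (72.1% of 721 and 14.9% of 3479), and of the 3180 lower, 2135 were lower (67.1% and 52.3%). Opposite calls were made for 11 of the 721 and 116 of the 3180. The culture difference itself differed between the lines for 2574 genes (14.1%), more positive in H2023 for 690 and more negative for 1884. Cholesterol genes differed in one direction, with a more positive culture difference in H2023 for 18 of 25 and a more negative one for none, and medians of 2.60 in H2023 and 1.11 in A549. HMGCS1 rose by 4.17 in H2023 and by 0.70 in A549, a difference of 3.47 (adjusted p = 0.000129). Interferon-stimulated genes went the other way, with a more negative difference in H2023 for 33 of 36 and medians of 0.61 and 3.17. Proliferation genes had a less negative difference in H2023 for 36 of 45 and 29 of 44 members, with 1 of the 44 more negative, and medians of -1.15 and -1.28 against -2.48 and -2.27. The 6 genes with the smallest p-values of at least 5 TPM in a group were TFF1, SERPINB3, SMIM31, OR51E1, PRDM16 and TCN1. PRDM16, a zinc finger transcription factor, rose in H2023 from 0.48 and 0.08 to 12 and 16.4 TPM and was between 0.07 and 0.54 TPM in the 4 A549 libraries. TFF1, a mucosal peptide, was at 2.23 and 1.39 TPM in H2023 oncosphere culture and at 136 and 104.71 TPM in that of A549. SMIM31 and OR51E1 were listed at 0 in all 4 H2023 libraries.

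**Figure D5:**
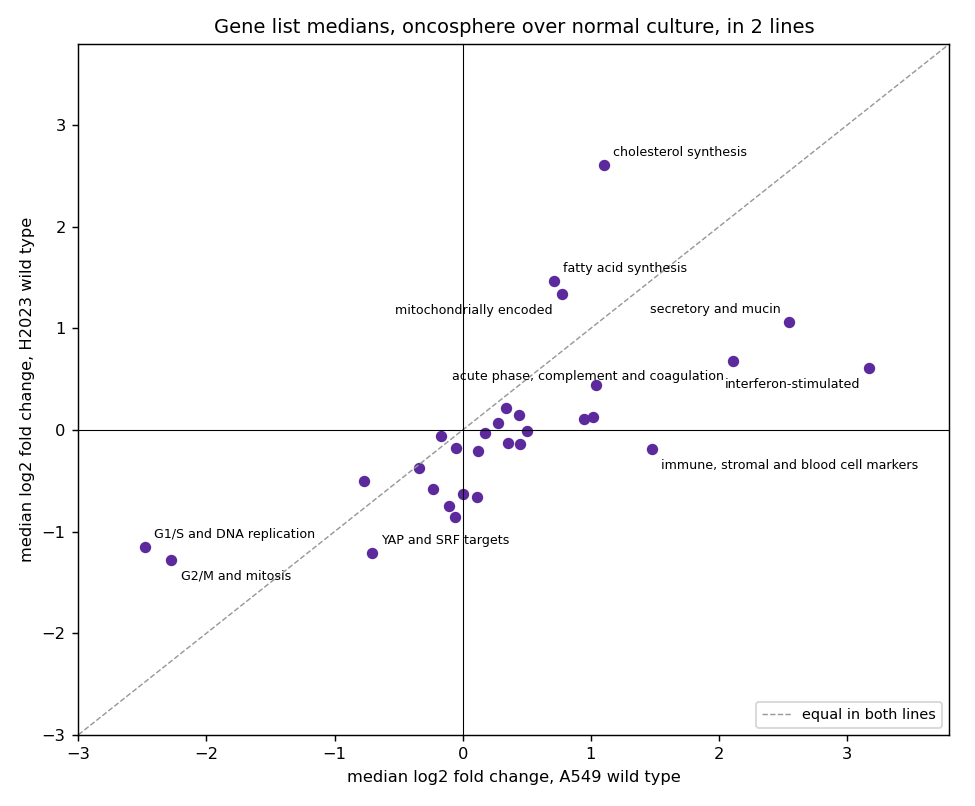
Median log2 fold change of each gene list in H2023 wild type (vertical axis) against A549 wild type (horizontal axis), oncosphere over normal culture, with the dashed line where both are equal. Cholesterol synthesis lies above the line, at 2.60 against 1.11, and interferon-stimulated genes lie far below it, at 0.61 against 3.17.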

How the data were processed

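Stranded mRNA libraries were made from total RNA, per the labels' protocols. TPM per gene and library were deposited by the authors in a separate table for every combination of line and culture, per the file headers. HISAT2, StringTie and GRCh38 are listed in the submitters' processing notes, with no versions or roles. Each table had 18361 rows, and 119 identifiers on several identical rows were used once, leaving 18227 genes. The deposited tables named 15590 of them, the reference name table another 867, and 1770 stayed without a symbol. The 4 tables were joined by identifier. TPM is scaled within each library and keeps no sequencing depth, so depth and the limit on a value of 0 are unknown.

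Log2(TPM + 1) of the 8 H2023 libraries was fitted by limma 3.58.1 under R 4.3.3, the prior variance following the mean, with 4 groups and two-sided tests, with Benjamini-Hochberg adjustment over all genes. Fold changes on this scale understate low genes. Differences between genotype labels used the same libraries, and those between lines all 16. On simulated data of 18227 genes, 58 of 100 genes changed 2-fold and 92 of 100 changed by 2 on the log2 scale were recovered, with 5 false calls. Only 200 genes were changed there, all above about 5 TPM in normal culture. Recovery of lower genes, or with as many changes as in these data, was not tested. The comparison and the 30 gene lists were chosen with earlier results of these data known. Of the listed genes 848 were measured, and 68 were not analysed here. Some measured members count in their lists but are not reported here by name. The text names ZC3H12A, the 12 largest rises and 12 largest falls of at least 5 TPM, up to 6 called members of each list by fold change with others given by value where a list is described, and 6 genes for each test of a difference. Gene positions are from GENCODE release 29 and promoters from RefSeq. Alternatives were other pseudocounts, filters, scalings, sets of libraries, a replicate block and leaving out each library.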

Additional observations from a re-analysis of the deposited data

Results flagged for a closer look

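The culture difference of H2023 wild type differed from that of A549 wild type in 2574 genes, by limma's test of the difference over 16 libraries. Of the 6 named genes, the difference (H2023 minus A549, log2 scale) was -6.44 for TFF1, -2.85 for SERPINB3, -2.89 for SMIM31, -2.71 for OR51E1, 3.995 for PRDM16 and -6.34 for TCN1, with adjusted p-values from 5.35e-06 to 7.02e-06. Apart from PRDM16, each of these was low in H2023 and rose in A549. In 5 lists no fewer members differed between lines than did not, with 18 cholesterol synthesis genes, 36 of G1/S and DNA replication, 30 of G2/M and mitosis, 33 interferon-stimulated genes and 3 of the 6 immune, stromal and blood markers. The 3 markers were CD14, PECAM1 and LYZ, which did not exceed 2.05 TPM in the 4 H2023 libraries.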

How the results depend on the processing

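The 3901 calls became 2285 (1022 higher, 1263 lower) without mitochondrially encoded genes, 2360 (1308 lower) with quantile normalization, and 1105 (262 higher, 843 lower) with the 4 wild-type libraries alone. Centring on the median gene gave 1542 higher and 1219 lower. Leaving out 1 library gave 1697 to 2630 calls, 338 to 574 higher and 1352 to 2056 lower, from fewer samples. Called list members numbered 325, against 179 with the 4 wild-type libraries and 212 to 288 with 1 library left out. The 24 largest rises and falls kept their calls except 4 with the 4 wild-type libraries and up to 3 when 1 library was left out. The 2574 genes that differed between lines became 1699 to 2128, the fewest without normal replicate 2, and the 0 that differed between genotype labels became 0 to 1. That 1, without oncosphere replicate 2, was RMRP (ENSG00000269900), whose symbol has 2 identifiers, at 11.99 TPM in oncosphere replicate 1 and listed at 0 in the other 3 wild-type libraries. A replicate block within each genotype label gave 3564 calls (702 higher, 2862 lower). Replicate differences of the 2 cultures correlated across genes with r = 0.22 in wild type and 0.13 in the libraries labelled knockout, but with 2 pairs the numbers are not taken to pair the samples. With 2 libraries a group, smaller changes were often not detectable. The effects of culture and of days were not separated.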
